A study of Mus musculus with 9 samples.

Results

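The proteasome subunit genes of the mouse lung were followed through ventilator-induced lung injury (VILI). Members were the protein-coding genes whose symbol in GENCODE M21 starts with Psma, Psmb, Psmc, Psmd, Psme or Psmf followed by a digit. The rule gave 46 genes of the 27203 genes in the expression table, with 92 of its 60108 transcripts, and all 46 had values. One of them, Psmc3ip, encodes a meiotic recombination factor and is no subunit, and it is given apart. The 45 members with a mean of at least 0.1 FPKM (sequenced fragments scaled by transcript length and library size) over all libraries entered the tests. Psmb11, the catalytic subunit of cortical thymic epithelium, did not: it was listed at 0 in 8 libraries and at 0.0119 FPKM in VILI 6 hours replicate 3.

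The proteasome degrades proteins tagged with ubiquitin. Its barrel-shaped 20S core is built of alpha rings that gate the entrance and beta rings that cut the substrate, and the 19S cap, made of ATPases and other subunits, binds, deubiquitinates and unfolds it. Interferon induces alternative catalytic subunits, Psmb8, Psmb9 and Psmb10, which replace Psmb5, Psmb6 and Psmb7 in newly assembled cores to form the immunoproteasome, known for making peptides for MHC class I, and white blood cells carry much of it without induction.

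Each of the 9 libraries held RNA from the whole lung of 1 male C57BL/6 mouse aged 6 to 8 weeks, 3 mice per group. All mice, controls included, were anesthetized with ketamine plus xylazine and intubated. Mice of both VILI groups were mechanically ventilated for 4 hours with a tidal volume of 20 ml/kg while relaxed with pancuronium, and were killed immediately (VILI 0 hours) or 6 hours afterwards (VILI 6 hours). Controls were not connected to the ventilator, so ventilation, its stretch and the drugs given for it cannot be told apart between the groups.

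The summed FPKM of a library ranged from 366360 to 388459, and read counts were not used here, so the spread between mice within groups is the sole measure of precision. Alveolar type 2 cell markers (6 genes) summed to at least 12247 FPKM in every library. The libraries did not respond alike. Both VILI 6 hours replicates 1 and 3 stood apart. In replicate 3 the 20 interferon response genes summed to 721 FPKM, against 413 to 419 FPKM in the controls and 317 to 399 FPKM in the other 5 VILI libraries. Its 15 genes of MHC class I antigen processing summed to 2810 FPKM, against 1746 to 1753 FPKM in the controls. Replicate 1 had the lowest sums of T cell (13.0 FPKM), NK cell (11.96 FPKM) and B cell (15.1 FPKM) markers and the highest of macrophage and monocyte markers (680 FPKM). Without replicate 1 the share of all genes past an adjusted p of 0.05 at 6 hours against control went from 0.702% to 23.3%, and without replicate 3 it went to 0.0877% (limma). Neutrophil markers (10 genes) rose from 50.2 to 57.4 FPKM in the controls to 566 to 1029 FPKM at 0 hours and 468 to 2075 FPKM at 6 hours. Because these are bulk libraries, fewer cells of a type and less RNA per cell cannot be told apart.

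All subunits of the core outside the tissue-restricted ones were detected in every library. Outside the immunoproteasome, the 14 genes of the 20S core had means of 18.8 to 60.0 FPKM over the 9 libraries, with Psma3 lowest and Psma2 highest. The 7 alpha-ring genes summed to 282, 286 and 310 FPKM in the controls, to 329, 307 and 296 FPKM at 0 hours and to 293, 284 and 334 FPKM at 6 hours. These sums overlapped between groups. The 6 ATPase genes of the cap summed to 215 to 222 FPKM in the controls, 226 to 230 FPKM at 0 hours and 221 to 233 FPKM at 6 hours, so that the 0 hours libraries lay above the controls. The 11 other cap genes summed to 316 to 320 FPKM, 322 to 348 FPKM and 342 to 358 FPKM in the same order of groups, with no overlap of either VILI group with the controls. Psma8, the alpha subunit of male germ cells, stayed at 0.340 FPKM or less. Of the other testis germ cell markers, Ddx4 was at most 0.140 FPKM, Sycp3 at most 0.234 FPKM and Dazl at most 0.0330 FPKM.

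The immunoproteasome genes had lower sums at 0 hours. Psmb8, Psmb9 and Psmb10 together summed to 62.4, 63.7 and 61.4 FPKM in the controls. At 0 hours they summed to 51.6, 55.3 and 41.8 FPKM, every library below every control. At 6 hours they summed to 54.9, 43.9 and 73.8 FPKM, and the highest library was replicate 3, which also carried the interferon response genes. The constitutive trio Psmb5, Psmb6 and Psmb7 summed to 127 to 132 FPKM in the controls, 132 to 142 FPKM at 0 hours and 132 to 148 FPKM at 6 hours.

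**Figure D1:**
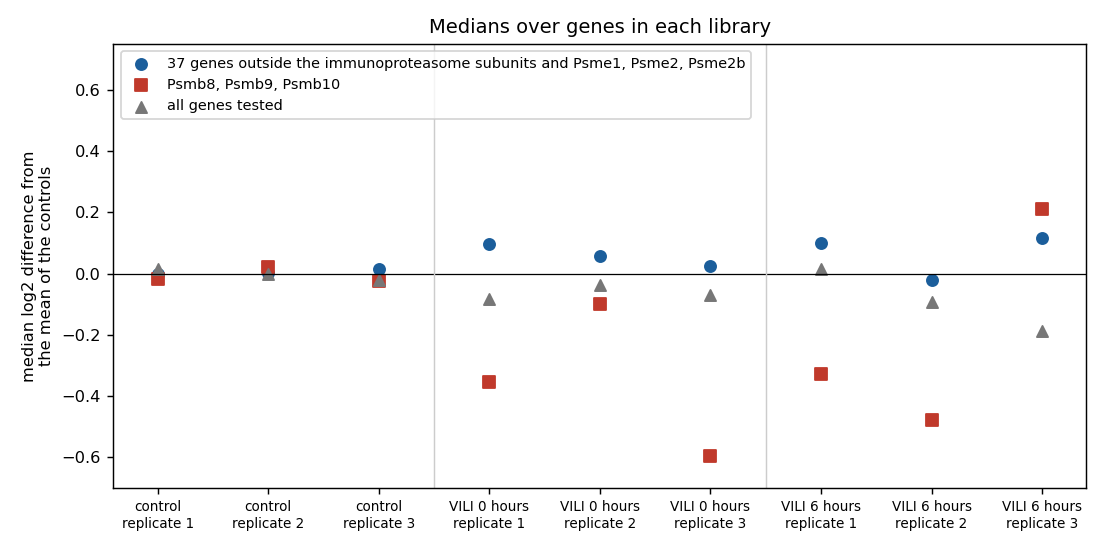
Median log2 difference from the mean of the 3 controls (y axis) in each of the 9 libraries (x axis), over 37 proteasome genes outside the immunoproteasome subunits and Psme1, Psme2 and Psme2b (circles), over Psmb8, Psmb9 and Psmb10 (squares) and over all genes tested (triangles). The squares lie at -0.36, -0.10 and -0.60 at 0 hours and at -0.33, -0.48 and 0.21 at 6 hours, while the circles stay between -0.02 and 0.12.

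Immediately after ventilation few proteasome genes moved. At an unadjusted P under 0.05, the threshold used in the study, 1 of the 45 members rose (2.22%, against 6.81% of all 19378 genes tested), and 0 fell, against 9.35% of all genes (limma on log2(FPKM + 0.1)). At a Benjamini-Hochberg adjusted p under 0.05 limma called 0 members and 0.284% of all genes. Counted without a test, 8 members had 0 hours libraries that were all above the controls (17.8%, against 12% of all genes) and 3 had libraries that were all below (6.67%, against 21.6%). The 8 were Psma6, Psmb4, Psmb7, Psmc1, Psmd3, Psmd12, Psmd13 and Psmd14, and the 3 were Psmb8, Psmb10 and Psme2. The median log2 fold change of the members was 0.04, with 29 of 45 above 0, beside -0.07 for all genes.

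At 6 hours after ventilation the members called were again all higher than in the controls. Against control, 6 members rose at P under 0.05 (13.3%, against 8.17% of all genes), namely Psmd3, Psma6, Psmd11, Psmc4, Psme3 and Psmd12, and 0 fell, against 12.2% of all genes. At an adjusted p under 0.05 limma called 0 members and 0.702% of all genes. The groups did not overlap for 10 members with higher values (22.2%, against 9.64%) and for 1 with lower values, Psmd5 (2.22%, against 15%). The median log2 fold change of the members was 0.03, with 27 of 45 above 0, beside -0.09 for all genes. The number of calls depended on the fit. With eBayes without a trend 1 member rose, against 7.51% of all genes, and with only the 6 libraries compared 2 rose, against 7.37%. In these fits 0 members fell, against 11.7% and 10% of all genes. When each library was centred on its median 11 members rose, a step that moved the median of all genes from -0.09 to 0.04 (from -0.07 to 0.05 at 0 hours). With centring the shares of all genes called higher and lower became 11.7% and 8.46% at 6 hours, and 10% and 6.36% at 0 hours. The controls serve in both comparisons, so the values at 0 and at 6 hours are not independent of each other.

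**Figure D2:**
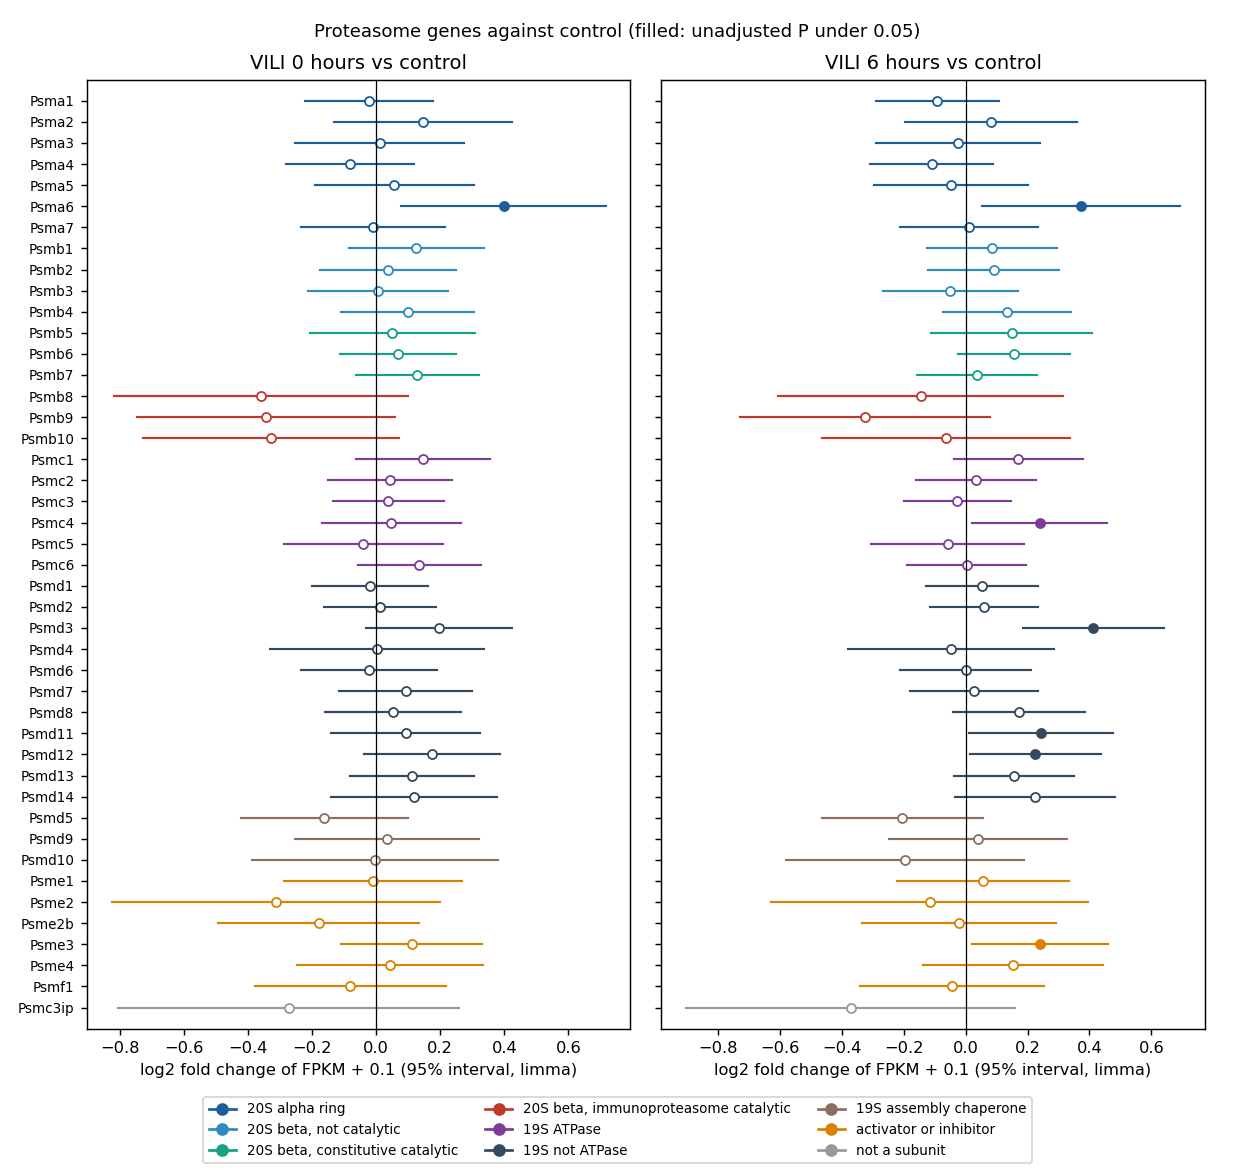
Log2 fold change of FPKM + 0.1 against control (x axis) for the 44 members with a mean of at least 1 FPKM (y axis, coloured by the subcomplex they belong to), at 0 hours (left) and at 6 hours (right), with 95% intervals from limma and filled circles where the unadjusted P was under 0.05. At 0 hours the 3 immunoproteasome subunits sit between -0.36 and -0.33 and Psma6 at 0.40, and at 6 hours 6 circles are filled, all above 0.

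Psma6 encodes a subunit of the alpha ring and was the one gene of the core called against control at both times. Its level was 44.3, 45.7 and 49.2 FPKM in the controls, 70.4, 56.5 and 57.2 FPKM at 0 hours and 51.3, 57.6 and 73.3 FPKM at 6 hours. Every VILI library lay above every control. The log2 fold change was 0.40 ± 0.14 (SE) at 0 hours (adjusted p = 0.215, limma) and 0.37 ± 0.14 at 6 hours (adjusted p = 0.192, limma). The 0 hours call at P under 0.05 was lost without control replicate 1, control replicate 2 or VILI 0 hours replicate 1, with log2 fold changes of 0.36, 0.39 and 0.29. The 6 hours call was lost without control replicate 1 (0.34), control replicate 2 (0.36) or VILI 6 hours replicate 3 (0.23), and with eBayes without a trend (0.37). The other 6 alpha-ring genes did not pass the test at either time, with log2 fold changes of -0.08 to 0.15 at 0 hours and -0.11 to 0.08 at 6 hours. Psma6 lies on chromosome 12 (chr12:55384222-55418454, plus strand, GRCm38).

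The cap accounted for most of the calls at 6 hours. Psmd3, a subunit of the lid of the cap on chromosome 11 (chr11:98682554-98695979, plus strand, GRCm38), had 27.4, 26.1 and 24.7 FPKM in the controls, 33.1, 27.4 and 29.4 FPKM at 0 hours and 32.3, 36.6 and 35.3 FPKM at 6 hours. All 6 VILI libraries exceeded the controls, though the lowest 0 hours library exceeded the highest control by a very small margin. The log2 fold change was 0.20 ± 0.10 (SE) at 0 hours (adjusted p = 0.375, limma) and 0.41 ± 0.10 at 6 hours (adjusted p = 0.0917, limma), the smallest adjusted p of any member.

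Other subunits of the lid followed at smaller sizes. Psmd12 had 21.04, 21.4 and 21.1 FPKM in the controls, 25.7, 22.9 and 23.3 FPKM at 0 hours and 23.5, 23.8 and 27.1 FPKM at 6 hours, with no overlap between control and either VILI group. Its log2 fold change was 0.17 ± 0.09 at 0 hours (adjusted p = 0.400, limma) and 0.22 ± 0.09 at 6 hours (adjusted p = 0.225, limma). Psmd11 had 26.0, 26.2 and 23.5 FPKM in the controls, 28.3, 26.1 and 26.3 FPKM at 0 hours and 27.0, 29.6 and 33.4 FPKM at 6 hours. Its 6 hours libraries were all above the controls by 0.24 ± 0.10 on the log2 scale (adjusted p = 0.227, limma), while the 0 hours libraries overlapped them. Psmc4, an ATPase of the base of the cap, had 29.8, 25.4 and 24.7 FPKM in the controls, 28.7, 26.6 and 27.1 FPKM at 0 hours and 32.7, 30.7 and 30.7 FPKM at 6 hours. Its rise of 0.24 ± 0.10 on the log2 scale (adjusted p = 0.212, limma) was seen at 6 hours, with 0.05 ± 0.10 at 0 hours. The call of Psmd3 held in all 18 alternatives, whereas that of Psmc4 was lost in 6, that of Psmd12 in 9 and that of Psmd11 in 10 of them. Leaving out VILI 6 hours replicate 3 lowered the log2 fold change to 0.16 for both Psmd11 and Psmd12, and leaving out control replicate 3 lowered that of Psmc4 to 0.19. The other cap subunits, among them the ubiquitin receptor Psmd4 and the deubiquitinase Psmd14, did not pass the test against control at either time. For Psmd14 the log2 fold change at 6 hours was 0.22 (adjusted p = 0.295, limma), and for Psmd4 it was -0.05 (adjusted p = 0.870, limma).

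Constitutive catalytic subunits showed small upward values that did not pass the test. Psmb6, with caspase-like activity, had 54.7, 56.1 and 57.2 FPKM in the controls, 60.4, 54.5 and 61.5 FPKM at 0 hours and 62.5, 62.0 and 62.7 FPKM at 6 hours. All 6 hours libraries were above the controls, with a log2 fold change of 0.16 ± 0.08 (adjusted p = 0.294, limma). Psmb7, with trypsin-like activity, had 37.3, 39.2 and 39.8 FPKM in the controls, 42.5, 41.6 and 43.1 FPKM at 0 hours and 39.4, 37.1 and 43.04 FPKM at 6 hours. Its 0 hours libraries were all above the controls (log2 fold change 0.13 ± 0.09, adjusted p = 0.501, limma) and its 6 hours libraries overlapped them. Psmb5, with chymotrypsin-like activity, had 35.1, 34.4 and 34.5 FPKM in the controls, 34.7, 35.5 and 37.6 FPKM at 0 hours and 45.6, 33.3 and 37.4 FPKM at 6 hours. The groups overlapped, and 1 library of the VILI 6 hours group, replicate 1, stood well above the rest.

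Their immunoproteasome counterparts had lower levels at 0 hours. Psmb8, the counterpart of Psmb5, had 26.6, 28.0 and 26.6 FPKM in the controls, 24.0, 22.0 and 17.7 FPKM at 0 hours and 21.5, 19.4 and 34.9 FPKM at 6 hours. All 0 hours libraries were below the controls, and at 6 hours 2 libraries were below and replicate 3 above. Psmb10, the counterpart of Psmb7, had 20.8, 21.2 and 21.3 FPKM in the controls, 16.5, 19.7 and 14.6 FPKM at 0 hours and 22.3, 15.1 and 24.4 FPKM at 6 hours. Again all 0 hours libraries were below the controls and the 6 hours libraries lay on both sides. Psmb9, the counterpart of Psmb6, had 15.0, 14.6 and 13.5 FPKM in the controls, 11.2, 13.7 and 9.47 FPKM at 0 hours and 11.1, 9.36 and 14.5 FPKM at 6 hours. One 0 hours library and one 6 hours library overlapped the controls.

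None of the 3 passed the test in the fit of all 9 libraries. At 0 hours the log2 fold change was -0.36 ± 0.20 for Psmb8 (95% interval -0.82 to 0.10, adjusted p = 0.426, limma), -0.34 ± 0.18 for Psmb9 (-0.75 to 0.06, adjusted p = 0.385) and -0.33 ± 0.18 for Psmb10 (-0.73 to 0.07, adjusted p = 0.404). At 6 hours the values were -0.15 (adjusted p = 0.6997), -0.32 (adjusted p = 0.325) and -0.06 (adjusted p = 0.859, limma). In that fit the spread of the 6 hours group enters the test at 0 hours. When only the 6 libraries of the 0 hours comparison were fitted, Psmb8, Psmb9 and Psmb10 fell by the same amounts at P under 0.05 (adjusted p = 0.103, adjusted p = 0.165 and adjusted p = 0.120, limma), as did 16.5% of all genes. Without VILI 6 hours replicate 3, Psmb8 (-0.40, adjusted p = 0.239, limma) and Psmb9 (-0.49, adjusted p = 0.231, limma) fell at P under 0.05 at 6 hours against control, as did 7.48% of all genes. Without replicate 2 Psmb10 (0.15), Psmb8 (0.02) and Psme2 (0.20) changed sign there, and none passed.

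**Figure D3:**
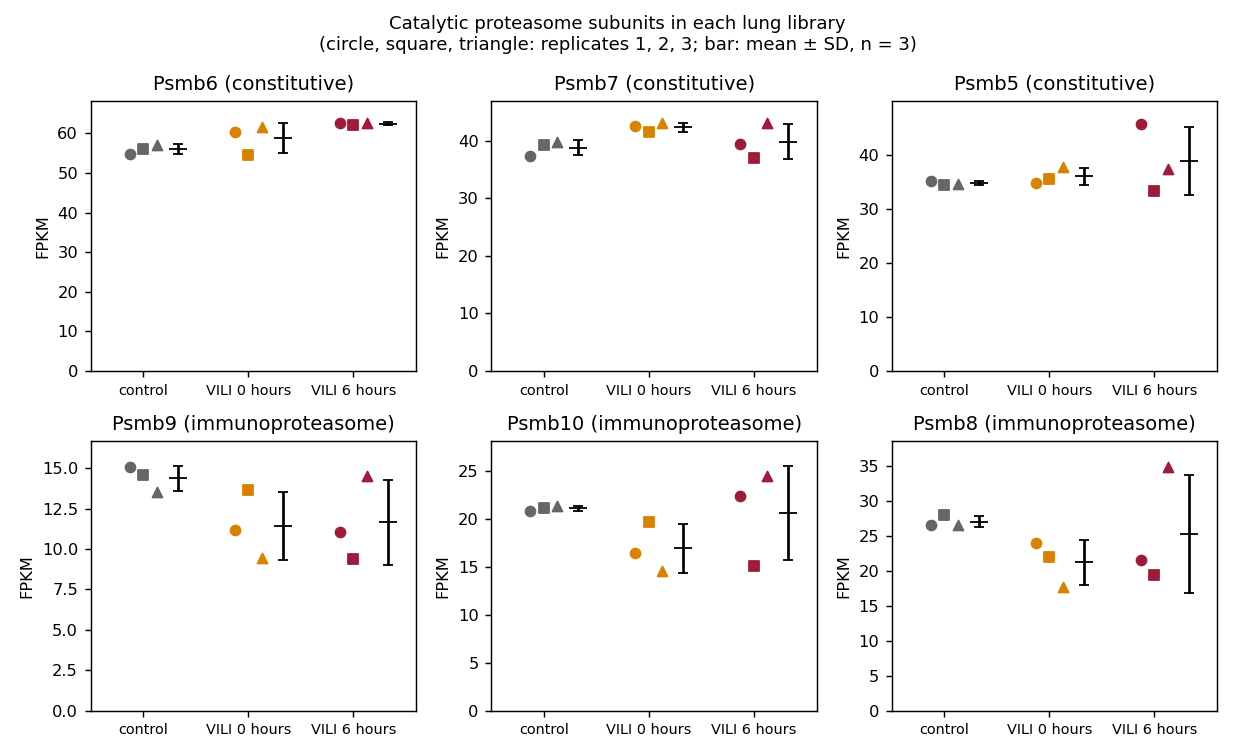
FPKM (y axis, from 0) of the constitutive catalytic subunits Psmb6, Psmb7 and Psmb5 (top) and of the immunoproteasome subunit that replaces each (bottom) in the 9 libraries by group (x axis); circles, squares and triangles are replicates 1, 2 and 3 and the bar is the mean ± SD of 3 libraries. Psmb8 and Psmb10 lie below all controls in each 0 hours library, and replicate 3 is the highest 6 hours library of each immunoproteasome subunit, with Psmb8 at 34.9 FPKM.

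The levels of each pair were also compared within a library, as a ratio of FPKM that does not depend on how libraries were scaled. The ratio describes RNA of the whole lung, and incorporation of subunits into proteasomes was not measured. Psmb8/Psmb5 was 0.757, 0.812 and 0.769 in the controls, 0.691, 0.618 and 0.471 at 0 hours and 0.472, 0.582 and 0.932 at 6 hours. Psmb10/Psmb7 was 0.558, 0.540 and 0.535, then 0.388, 0.473 and 0.339, then 0.567, 0.407 and 0.567. Psmb9/Psmb6 was 0.275, 0.260 and 0.237, then 0.185, 0.251 and 0.154, then 0.177, 0.151 and 0.232. The 0 hours libraries were all below the controls for Psmb8/Psmb5 and Psmb10/Psmb7, and the 6 hours libraries were all below them for Psmb9/Psmb6.

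At 0 hours the mean log2 ratio differed from control by -0.41 for Psmb8/Psmb5 (two-sided exact permutation p = 0.1), -0.46 for Psmb10/Psmb7 (exact p = 0.1) and -0.42 for Psmb9/Psmb6 (exact p = 0.2). At 6 hours the differences were -0.30 (exact p = 0.4), -0.10 (exact p = 1) and -0.48 (exact p = 0.1) in the same order. Between the VILI groups the differences were 0.12 (exact p = 0.8), 0.36 (exact p = 0.2) and -0.07 (exact p = 0.7). With 3 against 3 libraries there are 20 divisions and 0.1 is the smallest p possible, so none of these 9 comparisons could pass 0.05, before or after adjustment. Together, the immunoproteasome genes made up 32.9%, 32.9% and 31.8% of the FPKM of the 6 catalytic genes in the controls, 27.3%, 29.6% and 22.7% at 0 hours and 27.1%, 24.9% and 34.0% at 6 hours. The share was below the controls in 5 of the 6 VILI libraries, with replicate 3 of the 6 hours group above.

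**Figure D4:**
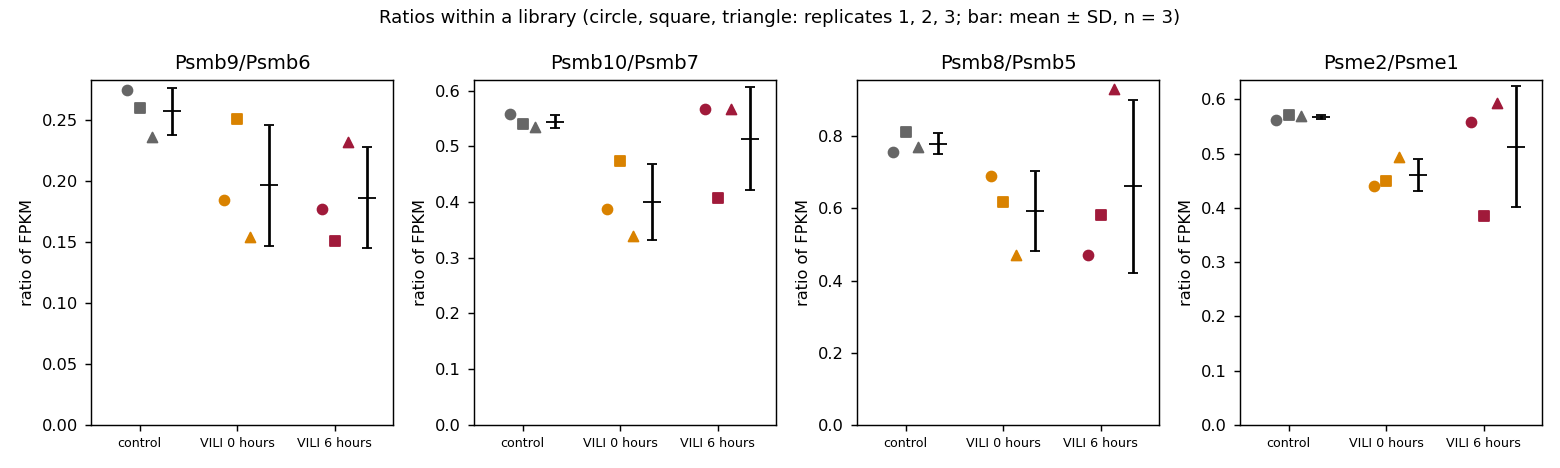
Ratio of FPKM within a library (y axis, from 0) for the 3 pairs of immunoproteasome and constitutive catalytic subunit and for Psme2/Psme1, by group (x axis); circles, squares and triangles are replicates 1, 2 and 3 and the bar is the mean ± SD of 3 libraries. At 0 hours Psmb10/Psmb7, Psmb8/Psmb5 and Psme2/Psme1 lie below every control in each library, and at 6 hours the libraries spread from 0.407 to 0.567, 0.472 to 0.932 and 0.385 to 0.594.

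Promoter sequence was examined because constitutive and immunoproteasome genes are known to answer to different transcription factors. RefSeq (GRCm38.p6) gave promoters for 39 of the 46 members, and the 250 bases before the start were searched on both strands. The core of the antioxidant response element, TGACNNNGC, occurred in 5 of the 39 genes (12.8%), against 11.5% of 27025 genes: Psmb5, Psmb6, Psmc6, Psmd9 and Psmd12. The core of the interferon-stimulated response element, GAAANNGAAA, occurred in Psmb3, Psmd4 and Psmd9 (7.69%, against 3.46% of genes). The core of the gamma-activated sequence, TTCNNNGAA, occurred in Psmb8 alone (2.56%, against 8.13%), at positions -97 to -89 from the RefSeq start used. That window began at chr17:34197945, inside the Psmb8 gene, which starts at chr17:34197721 in GENCODE M21. The match is thus within the annotated gene and not upstream of it. No matches of different motifs overlapped in these windows. Of the 5 genes with the antioxidant response element core, Psmd12 alone was called at 6 hours against control. Shown are the promoters of 2 constitutive catalytic genes (Psmb6 and Psmb5) and of Psmd12, which rose at 6 hours, with their antioxidant response element core in capitals, and that of the immunoproteasome gene Psmb10, which held none of the 3 motifs. Each is given 5′ to 3′ on the strand of the gene, as the longest stretch of the window outside annotated exons.
Psmb6, chr11:70525107-70525356, plus strand: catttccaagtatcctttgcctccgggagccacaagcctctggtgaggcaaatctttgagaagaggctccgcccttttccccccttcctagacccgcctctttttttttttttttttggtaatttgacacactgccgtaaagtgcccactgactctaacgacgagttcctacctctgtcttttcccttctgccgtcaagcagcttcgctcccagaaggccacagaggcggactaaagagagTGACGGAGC
Psmb5, chr14:54618023-54618245, minus strand: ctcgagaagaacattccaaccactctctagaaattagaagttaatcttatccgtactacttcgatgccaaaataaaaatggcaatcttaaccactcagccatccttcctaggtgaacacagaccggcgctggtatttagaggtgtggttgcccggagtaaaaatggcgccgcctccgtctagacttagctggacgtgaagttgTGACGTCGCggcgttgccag
Psmd12, chr11:107479278-107479483, plus strand: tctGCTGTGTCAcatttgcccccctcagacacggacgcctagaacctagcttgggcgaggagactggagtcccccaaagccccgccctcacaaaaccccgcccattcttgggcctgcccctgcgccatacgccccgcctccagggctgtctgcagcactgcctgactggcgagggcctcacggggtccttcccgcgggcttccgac
Psmb10, chr8:105938445-105938642, minus strand: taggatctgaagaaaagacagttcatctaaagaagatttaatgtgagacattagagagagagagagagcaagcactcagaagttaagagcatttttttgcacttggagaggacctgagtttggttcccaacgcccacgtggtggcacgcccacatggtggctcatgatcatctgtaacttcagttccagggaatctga
In Psmb6 the match ended at the base before the start (-9 to -1), in Psmb5 it lay at -47 to -39, and in Psmd12 it lay far upstream (-247 to -239) on the opposite strand. A match is a description of letters, and occupancy of these stretches was not measured.

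Psmb8 and Psmb9 are neighbours in the MHC on chromosome 17 (Psmb9 at chr17:34181987-34187764, minus strand, and Psmb8 at chr17:34197721-34201454, plus strand, GRCm38). The exons of Psmb9 share 212 bases with those of Tap1, the peptide transporter gene on the opposite strand, which averaged 15.6 FPKM. The sources differ on the library kit, so whether reads of the 2 strands were separated is not settled, and reads in these bases may belong to either gene. The same holds for Psmb7, a denominator of the ratios above, which shares 405 exonic bases with Nek6 (5.96 FPKM), for Psmd13 with Sirt3 (342 bases, 4.86 FPKM) and for Psmc3 with Slc39a13 (215 bases, 10.9 FPKM), each on the opposite strand. Psmc3ip shares 385 of its 1818 exonic bases with Mlx on the opposite strand, which averaged 11.1 FPKM against 2.07 FPKM for Psmc3ip. Tap1 itself had 15.9, 16.2 and 15.4 FPKM in the controls, 17.7, 12.8 and 9.89 FPKM at 0 hours and 11.2, 15.0 and 26.4 FPKM at 6 hours.

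Among the regulators that cap the core in place of 19S, the interferon-inducible pair Psme1 and Psme2 did not follow one pattern. Psme2 had 34.0, 32.9 and 32.8 FPKM in the controls and 26.3, 27.0 and 26.9 FPKM at 0 hours, every library lower, and 33.3, 19.9 and 43.4 FPKM at 6 hours, on both sides of the controls. The log2 fold change at 0 hours was -0.31 ± 0.23 (adjusted p = 0.538, limma), and in the limma fit of only the 6 libraries compared it was the one member past an adjusted p of 0.05 (adjusted p = 0.0267), a threshold that 8.24% of all genes passed in that fit. Psme1 had 60.4, 57.6 and 57.6 FPKM in the controls, 59.9, 60.2 and 54.4 FPKM at 0 hours and 59.6, 51.5 and 73.1 FPKM at 6 hours, overlapping throughout. Psme2/Psme1 was thus 0.563 to 0.570 in the controls, 0.440 to 0.494 at 0 hours and 0.385 to 0.594 at 6 hours. The Psme2 level is uncertain, since its near copy Psme2b (29.5 to 31.8 FPKM in the controls, 23.8 to 30.5 FPKM at 0 hours, 24.9 to 33.8 FPKM at 6 hours) matched it at 97.0% of 829 aligned bases, and 44.5% of its 100-base windows were identical, so reads could be assigned to either.

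The remaining regulators moved little or upward. Psme3, the activator found in the nucleus, had 21.6, 20.7 and 17.9 FPKM in the controls, 22.6, 21.1 and 21.1 FPKM at 0 hours and 23.1, 23.2 and 24.6 FPKM at 6 hours. Its 6 hours libraries were above all controls and all 0 hours libraries, and it rose by 0.24 ± 0.10 on the log2 scale against control (adjusted p = 0.216, limma). That call was lost in 8 of the 18 alternatives, with a log2 fold change of 0.16 without control replicate 3. Psme4, a nuclear activator with a role in chromatin, had 23.1, 24.5 and 23.5 FPKM, then 27.0, 22.4 and 24.1 FPKM, then 22.2, 26.7 and 30.9 FPKM. Psmf1, which inhibits the core in vitro, had 6.99, 6.40 and 7.59 FPKM, then 7.07, 6.73 and 6.03 FPKM, then 7.58, 6.72 and 6.06 FPKM. For both genes the groups overlapped at both times.

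The 3 chaperones that assemble the base of the cap summed to 21.9 to 22.3 FPKM in the controls and 19.6 to 22.6 FPKM in the VILI libraries. Psmd5 had 8.88, 8.87 and 9.38 FPKM in the controls, 7.46, 9.09 and 7.74 FPKM at 0 hours and 8.34, 7.75 and 7.44 FPKM at 6 hours, all 6 hours libraries below the controls (log2 fold change -0.20 ± 0.12, adjusted p = 0.335, limma). Psmd10, known as the oncoprotein gankyrin, had 6.99, 7.47 and 5.70 FPKM in the controls, 6.08, 7.20 and 6.74 FPKM at 0 hours and 6.96, 4.70 and 5.99 FPKM at 6 hours. Its groups overlapped, and Psmd9 had log2 fold changes of 0.03 at 0 hours and 0.04 at 6 hours. Psmc3ip, no subunit, had 2.40, 2.39 and 2.33 FPKM in the controls, 1.498, 2.42 and 2.03 FPKM at 0 hours and 2.41, 1.43 and 1.73 FPKM at 6 hours. Its log2 fold change at 6 hours was -0.37 (adjusted p = 0.387, limma), the lowest value of a member above 1 FPKM.

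Between 0 and 6 hours after ventilation limma called 0 members at an adjusted p under 0.05 and also 0 at an unadjusted P under 0.05, where 5.06% of all genes were higher and 4.94% lower. The 6 hours libraries were all above the 0 hours libraries for Psmb6, Psme3 and Psmc4 (6.67%, against 6.25% of all genes), and all below for Psma1, Psmc3 and Psmc6 (6.67%, against 6.28%). The largest upward values were 0.27 ± 0.18 for Psmb10 (adjusted p = 0.662, limma), 0.21 ± 0.10 for Psmd3 (adjusted p = 0.522) and 0.21 ± 0.20 for Psmb8 (adjusted p = 0.775). Among members with a mean of at least 1 FPKM the largest downward ones were -0.19 ± 0.17 for Psmd10 (adjusted p = 0.755, limma), -0.13 ± 0.09 for Psmc6 (adjusted p = 0.650) and -0.10 ± 0.11 for Psma5 (adjusted p = 0.804). Psmc6, an ATPase of the cap, had 44.0, 45.1 and 43.1 FPKM at 0 hours and 39.8, 39.5 and 41.4 FPKM at 6 hours, and 38.4, 38.4 and 43.8 FPKM in the controls. Psma5, of the alpha ring, had 22.5, 23.5 and 21.7 FPKM at 0 hours and 20.8, 18.7 and 23.7 FPKM at 6 hours, and 20.7, 23.7 and 20.8 FPKM in the controls. Leaving out VILI 6 hours replicate 2 gave 4 calls, all upward, in a fit where 5.08% of all genes were higher and 4.76% lower. Leaving out replicate 1 gave 2 calls, both upward, where 8.55% of all genes were higher and 13.9% lower.

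For 22 members the table held several transcripts, and some of them traded level while the gene did not. Of 72 member transcripts in a fit of all transcripts, 2 passed P under 0.05 at 0 hours against control (11% of all transcripts passed in either direction), 9 at 6 hours (13.2%) and 1 between the VILI groups (7.4%), with 0 at an adjusted p under 0.05 in limma. The first of 3 transcripts of Psmd12 rose by 0.77 on the log2 scale at 6 hours (adjusted p = 0.352, limma). Its level was 12.4, 21.3 and 11.2 FPKM in the controls, 25.6, 14.5 and 11.9 FPKM at 0 hours and 23.4, 23.7 and 27.0 FPKM at 6 hours. The second transcript was at 8.37 to 11.4 FPKM in the 4 libraries where the first was low and at 0.154 FPKM or less in the other 5, so the change of the transcript exceeded that of the gene. In Psmc3, an ATPase gene, the fourth transcript was lower at 6 hours than at 0 hours (log2 fold change -0.57, adjusted p = 0.664, limma), with 42.0, 28.3 and 39.5 FPKM in the controls, 41.5, 41.3 and 43.4 FPKM at 0 hours and 26.0, 21.4 and 40.9 FPKM at 6 hours. The second transcript was at 8.92 FPKM in control replicate 2 and at 12.2 and 14.7 FPKM in the 2 low 6 hours libraries, and at 0.0863 FPKM or less in the other 6 libraries, so the same exchange was present in a control, while the sum of the gene had a log2 fold change against control of 0.04 at 0 hours and -0.03 at 6 hours. The first transcript of Psmd13, at 3.08, 3.45 and 3.00 FPKM in the controls, 4.53, 2.96 and 3.11 FPKM at 0 hours and 4.06, 4.81 and 6.04 FPKM at 6 hours, rose by 0.61 at 6 hours (adjusted p = 0.311, limma), whereas the gene had 0.16. The transcripts of Psma6, Psmc4, Psmd3, Psmd11 and Psme3 that passed and averaged at least 1 FPKM carried most of the level of their genes and repeated the changes given above.

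The list of proteasome-associated factors and assembly chaperones also holds Adrm1 and Sem1, subunits of the cap whose symbols the naming rule does not reach. Of its 27 genes tested, 2 rose at both times (against 6.81% of all genes at 0 hours and 8.17% at 6 hours), the ubiquitin receptor Adrm1 (log2 fold change 0.32 at 0 hours and 0.33 at 6 hours) and Ddi2 (0.30 and 0.38), the protease that activates the transcription factor Nfe2l1. Adrm1 had 22.4, 21.5 and 20.6 FPKM in the controls, 30.9, 23.9 and 26.1 FPKM at 0 hours and 26.1, 27.3 and 27.5 FPKM at 6 hours, with no overlap. Ddi2 had 17.1, 16.3 and 16.7 FPKM, then 19.1, 22.4 and 20.4 FPKM, then 18.6, 25.0 and 22.0 FPKM, also without overlap. Sem1 had log2 fold changes of 0.05 and -0.03 against control and did not pass. The assembly chaperone Psmg2 fell at 6 hours (-0.43), and between the VILI groups none passed, with Ecpas (0.09) and Psmg3 (-0.44) at the extremes. None passed an adjusted p of 0.05 (limma), with medians of -0.04 and -0.05 against control.

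Nfe2l1, which drives proteasome genes when the proteasome is impaired, had the lowest fold changes of that list, -0.53 at 0 hours (adjusted p = 0.708, limma) and -0.54 at 6 hours (adjusted p = 0.622, limma). Its FPKM was 58.9, 60.8 and 60.7 in the controls, 65.3, 66.8 and 16.6 at 0 hours and 64.2, 64.5 and 17.0 at 6 hours. The low libraries were replicate 3 of both VILI groups, in which its main transcript was listed at 0.0311 and 0.0440 FPKM, against 56.3 to 63.7 FPKM in the other 7 libraries. Whether those 2 values are failed estimates was not tested.

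The ubiquitin genes moved in both directions. Of 8 genes, 2 rose and 0 fell at 0 hours against control, and 2 rose and 1, Rps27a, fell at 6 hours. Of all genes 6.81% rose and 9.35% fell at 0 hours, and 8.17% rose and 12.2% fell at 6 hours. Those that rose included the polyubiquitin gene Ubb, by 0.33 at 0 hours and 0.28 at 6 hours on the log2 scale. Ubb had 243, 240 and 243 FPKM in the controls, 320, 307 and 287 FPKM at 0 hours and 262, 297 and 330 FPKM at 6 hours. Neither VILI group overlapped the controls. Rps27a, a ubiquitin and ribosomal protein fusion gene, had 205, 212 and 186 FPKM in the controls, 66.5, 209 and 209 FPKM at 0 hours and 53.7, 51.3 and 142 FPKM at 6 hours (-0.49 at 0 hours, -1.46 at 6 hours, adjusted p = 0.154 in limma, and -0.96 between the VILI groups), and its first transcript was listed at 0 in exactly the 3 VILI 6 hours libraries and its second in control replicate 3 and VILI 0 hours replicate 2, so that the fall at 6 hours rests on zeros that can be failed estimates. The largest upward values, 1.46 at 0 hours and 1.497 at 6 hours for the conjugating enzyme gene Ube2l3, rest on 1 control library, in which its main transcript was listed at 0, against 25.5 to 33.2 FPKM in the other 8 libraries. Between the VILI groups Uba1, the ubiquitin-activating enzyme, was highest (0.15), and 0 genes passed at an adjusted p of 0.05 (limma) in any comparison.

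The genes that use the peptides of the immunoproteasome were measured beside it. For comparison with the counts that follow, 9.35% of all genes fell at 0 hours and 12.2% at 6 hours against control, and 4.94% were lower at 6 than at 0 hours. Of 15 genes of MHC class I antigen processing, 2 fell at 0 hours, the trimming peptidase Erap1 (-0.32) and the promoter-binding factor Rfx5 (-0.37), Erap1 fell again at 6 hours (-0.34), and Rfxap was lower at 6 hours than at 0 hours (-0.33). The highest values were those of H2-D1, a class I heavy chain (0.24 and 0.29 against control), and of Tap1 between the VILI groups (0.32), none past the test. B2m, the class I light chain, had 648, 645 and 660 FPKM in the controls, 736, 709 and 703 FPKM at 0 hours and 381, 575 and 1295 FPKM at 6 hours. As with Psmb8 and Psmb10, replicate 3 was the highest of the 6 hours group, but at 0 hours B2m lay above the controls while Psmb8 and Psmb10 lay below.

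Of 20 interferon response genes, 4 fell at 0 hours, among them the transcription factor gene Irf8 (-0.76), the class II transactivator Ciita (-0.97) and Ifit3 (-1.07), and the interferon gamma receptor gene Ifngr1 rose (0.56), beside 9.35% of all genes that fell and 6.81% that rose. At 6 hours 2 fell, among them Ciita (-0.82), beside 12.2% of all genes. Cxcl10, an interferon-induced chemokine, had 1.39, 0.940 and 1.201 FPKM in the controls, 0.227, 1.13 and 0.165 FPKM at 0 hours and 0.564, 2.15 and 59.3 FPKM at 6 hours. It had the lowest value at 0 hours (-1.41), the highest at 6 hours (1.82) and, through 1 library, a call at P under 0.05 between the VILI groups (3.23, adjusted p = 0.474, limma), where Ifngr1 was lowest (-0.14). The medians were -0.30 at 0 hours, 0.01 at 6 hours and 0.33 between the VILI groups, and 0 genes passed an adjusted p of 0.05 (limma). In VILI 6 hours replicate 3, 14 of the 20 genes exceeded all controls, against 1 to 5 in the other VILI libraries.

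Marker genes of several cell types differed between the groups as well, and their part in the values of the proteasome genes was not tested. For comparison with the counts of markers, 6.81% of all genes rose and 9.35% fell at 0 hours, and 8.17% rose and 12.2% fell at 6 hours against control. Between the VILI groups 5.06% of all genes were higher and 4.94% lower at 6 hours. Neutrophil markers rose, 8 of 10 at 0 hours and 9 of 10 at 6 hours (6 and 8 at an adjusted p under 0.05, limma), led by Retnlg with log2 fold changes of 4.95 and 4.60. The lowest values were 1.77 for Camp at 0 hours, which did not pass, and 2.07 for Csf3r at 6 hours, which did. B cell markers (6 genes) summed to 50.6 to 68.2 FPKM in the controls, 21.6 to 66.7 FPKM at 0 hours and 15.1 to 43.2 FPKM at 6 hours, with 1 marker lower at 0 hours, 4 at 6 hours and 1 between the VILI groups. Of these Ms4a1 was lowest in each (-0.88, -1.86 and -0.99), and Cd79b (-0.44), Pax5 (-0.95) and Cd22 (-0.31) were least low. T cell markers (8 genes) summed to 24.9 to 34.9, 21.6 to 41.6 and 13.0 to 35.9 FPKM with 0 called in each comparison, from 0.58 for Cd3e at 0 hours to -0.71 for Cd3d between the VILI groups. NK cell markers (6 genes) summed to 27.3 to 31.6, 21.8 to 30.7 and 11.96 to 70.4 FPKM, with the highest value in VILI 6 hours replicate 3. Ncr1 fell at 0 hours (-0.97), Ncr1 (-0.81) and Klre1 (-1.37) fell at 6 hours, and Klre1 was lower at 6 than at 0 hours (-1.34). Macrophage and monocyte markers (8 genes) summed to 220 to 280, 304 to 415 and 254 to 680 FPKM, with 1 and 3 markers higher, among them Ly6c2 at 6 hours (1.33). Of the resident cells, dendritic (5 genes), endothelial (6 genes), fibroblast (5 genes), alveolar type 1 (5 genes) and alveolar type 2 (6 genes) markers gave at most 2 calls in either direction per comparison, the largest being Xcr1 (-1.49), Col3a1 (-0.55), Pdpn (0.79) and Lamp3 (-0.31) at 6 hours against control and Emcn (-0.88) between the VILI groups. In lists this short, 2 calls exceed the shares of all genes. They were 2 of 5 fibroblast markers lower and 2 of 5 alveolar type 1 markers higher at both times against control. Endothelial markers had 2 of 6 lower at 6 hours, against control and against 0 hours. Dendritic and alveolar type 2 markers gave at most 1 call in a direction. The other extremes did not pass the test unless stated. Between the VILI groups Ngp (1.53) and Retnlg (-0.35) bounded the neutrophil markers, and Ccr2 (0.90) was the highest macrophage and monocyte marker. Cd3g was the lowest T cell marker at 0 hours (-0.14) and at 6 hours (-0.64), and Klrb1c (0.33) was the highest NK cell marker at 0 hours. Chil3 (0.74) and Csf1r (-0.14) bounded the macrophage and monocyte markers at 0 hours. Of the resident cells, Dcn (0.39), Emcn (0.35) and Pdpn (0.57) rose and Col3a1 (-0.47) fell at 0 hours, Dcn was lower at 6 than at 0 hours (-0.55), and Kdr (-0.66 at both times), Aqp5 (-0.24 and -0.33) and Sftpd (0.32 and 0.27) were extremes against control. Of the thymic epithelial markers besides Psmb11, Foxn1 was listed at 0 in every library and Aire was at most 0.0280 FPKM.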

How the data were processed

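Lung RNA of 9 mice was sequenced by the study. The authors mapped reads by TopHat, built transcripts with Cufflinks and Scripture, and deposited FPKM per transcript from Cuffdiff (per the labels, TopHat2 2.0.9, Cuffdiff 2.1.1, GRCm38). FPKM keeps no read counts, and an exact 0 can be a failed estimate. Groups came from the treatment labels of the samples, and the sample titles matched samples to expression columns. Of 23713 Ensembl gene IDs, 23580 were named by GENCODE M21.

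Here FPKM was summed per gene and tested as log2(FPKM + 0.1), mean at least 0.1, with limma 3.58.1 in R 4.3.3 (all 9 libraries, group as the only factor, eBayes with a trend, Benjamini-Hochberg over 19378 genes), after a check on simulated data. Fold changes of low genes are understated by the pseudocount of 0.1. Ratios were tested by exact permutation. The limma P-values rest on the spread between mice within the 3 groups, pooled over all 9 libraries and moderated over all genes tested. Sequences were aligned with Biopython 1.88 (Python 3.11.15, numpy 2.4.6, pandas 2.3.3, matplotlib 3.10.9).

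Named with full values were the catalytic pairs, the regulators, per comparison up to 5 called members in each direction or else the 3 largest changes, the extremes of each list and called transcripts of at least 1 FPKM; Psmd12 was added as the sixth call, and the values of Tap1, B2m and Cxcl10 were chosen after they were seen. The members and lists were chosen with earlier results of these data known. Alternatives were other pseudocounts, filters, centring, transcripts, a replicate block, fits of 6 libraries, no trend and leaving out each library. Some results of the ubiquitin and interferon lists are not reported here.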

Additional observations from a re-analysis of the deposited data

How the results depend on the processing

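The count of members at P under 0.05 in the 0 hours comparison was 1. It was 2 with median-centred libraries, both higher, where 10% of all genes were higher and 6.36% lower. With only the 6 libraries compared it was 6 (2 higher, 4 lower), against 9.78% and 16.5% of all genes. It ranged from 0 to 3 when each library was left out (0 without control replicate 1, control replicate 2 or VILI 0 hours replicate 1, and 3 without replicate 2 of either VILI group or VILI 6 hours replicate 3). In those fits 4.73% to 8.98% of all genes were higher and 5.48% to 14.2% lower. Against control at 6 hours the count of members was 6. It was 11 with median-centred libraries (11.7% of all genes were higher and 8.46% lower) and 2 with only the 6 libraries compared (7.37% and 10%). It was 1 with eBayes without a trend (7.51% and 11.7%) and 1 to 9 when each library was left out. The lowest came without control replicate 2 (5.99% of all genes were higher and 7.13% lower), followed by 2 without control replicate 3 (5.59% and 7.68%). It was 3 without control replicate 1 (6.58% and 7.8%) or VILI 0 hours replicate 2 (7.76% and 10.8%). The highest came without VILI 6 hours replicate 1, with 8 members higher and Psmc3ip lower, against 12.8% and 26% of all genes. In that fit 3 members passed an adjusted p of 0.05 in limma, as did 23.3% of all genes. Without replicate 3 of that group 2 rose (Psmd3, Psmc4) and 2 fell (Psmb8, Psmb9), against 6.63% and 7.48% of all genes. Between the VILI groups the count was 0, but 1 without a filter on low values (Psmd3, higher, against 4.78% of all genes) and 1 for the transcript with the highest mean FPKM (lower, against 4.84%). When each library was left out it was 0 to 4, and 3.45% to 8.55% of all genes were higher and 3.15% to 13.9% lower. Other pseudocounts and filters gave the same counts against control, and the cause of these moves was not tested.

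With a replicate block the counts were 1, 3 and 0 in the 3 comparisons, where 6.16%, 7.51% and 4.58% of all genes were higher and 8.38%, 10.5% and 4.16% lower. Deviations of libraries with the same number correlated between -0.22 and 0.02, so the numbers were not taken to pair mice.

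Of 28 fold changes of named members, 6 kept direction and side of the threshold in every alternative, and among 504 values 40 lost a call, 18 gained one and 11 changed sign. Median centring turned Psme1 at 0 hours to 0.10, and Psmb10 and Psme2 at 6 hours to 0.065 and 0.011. The transcript with the highest mean FPKM gave Psme1 0.0005 at 0 hours. With each library left out, log2 fold changes ranged across 0 for Psme1 at 0 hours (-0.036 to 0.037) and, at 6 hours against control, for Psme1 (-0.078 to 0.17), Psme2 (-0.37 to 0.20), Psmb8 (-0.40 to 0.0195) and Psmb10 (-0.20 to 0.15), as well as for Psmb8 between the VILI groups (-0.043 to 0.38). In the same way the ratio differences ranged from -0.16 to 0.33 for Psmb8/Psmb5 and from -0.24 to 0.12 for Psmb9/Psmb6 between the VILI groups, and from -0.18 to 0.059 for Psmb10/Psmb7 at 6 hours against control. The other 6 ratio differences kept their direction in every alternative.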
